A study of Mus musculus with 26 samples.

Results

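The 4 Hox gene clusters were examined in reduced-representation bisulfite sequencing (RRBS) data of mouse sperm. The members were the CpG positions inside the RefSeq spans of 38 Hox genes on GRCm38, joined into 1 span per cluster with 2000 bp added on either side, that had at least 10 reads in a library. In all 6543 of 2626470 such positions in the genome lay in the clusters. Of these, 1734 lay in Hoxa (chr6:52160417-52262880), 1726 in Hoxb (chr11:96192316-96370254), 1361 in Hoxc (chr15:102919131-103038856) and 1722 in Hoxd (chr2:74666225-74767142). RRBS enriches CpG-rich restriction fragments, and bisulfite converts unmethylated cytosines, so that the percentage of unconverted reads at a position is its methylation level.

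Hox genes encode homeodomain transcription factors that give the segments of the embryo their identity along the head-to-tail axis. They lie side by side in their clusters in the order in which they are expressed along that axis, and genes at corresponding places in different clusters are called paralogues. The clusters are dense in CpGs, and in germ cells and early embryos their silent genes are held by Polycomb complexes on DNA that carries little methylation.

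Epididymal sperm of 26 male mice had been collected to ask whether culture and transplantation of spermatogonial stem cells leaves methylation changes in the germ line. SSCT F0 were 3 sterile W/W-v males whose sperm arose from transplanted, cultured neonatal DBA/2J stem cells, and control F0 were 3 DBA/2J males; both were 16 to 18 months old. The offspring were DBA/2J males of 3 months, 5 in each group: control F1 from control F0 fathers, SSCT F1 from SSCT F0 fathers, SSCT F2/M from SSCT F1 mothers and SSCT F2/P from SSCT F1 fathers, with control DBA/2J mates throughout. In SSCT F0, culture, transplantation, the W/W-v host testis and a lower amount of input DNA in the library preparation occurred together and cannot be told apart, and no second control generation was bred.

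Groups follow the sample titles, but the sources disagree on the offspring. The study's clustering figure gives the libraries titled SSCT F2/M as control F1, those titled SSCT F2/P as SSCT F1, those titled control F1 as SSCT F2/M and those titled SSCT F1 as SSCT F2/P, and the treatment label of the libraries titled SSCT F2/M reads WT. Which names are right cannot be told from the labels, so every offspring group below is a group of libraries by title, and single CpGs, windows and gene levels are given by title alone. For the means of all Hox positions, clusters and islands, and for the counts of calls, the names of the figure were tried as well.

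The SSCT F0 libraries stood apart. The other 23 libraries held 4326 to 5325 Hox positions with at least 10 reads, with a median of 24 to 44 reads, whereas SSCT F0 replicates 1, 2 and 3 held 4790, 3815 and 750, and the few positions of replicate 3 were read to a median depth of 388.5. At 454178 positions in the genome that were methylated to at least 90% in the other libraries, SSCT F0 replicate 3 had a value at 1.37% and averaged 61.2% there, replicate 2 averaged 90.4% and replicate 1 averaged 96.0%, against 97.3 to 97.7% in the other 23. At Hox positions of intermediate methylation, SSCT F0 replicates 1, 2 and 3 read exactly 0 or 100% in 50.2, 78.9 and 74.4% of their values, against 27.9 to 49.8% in the others. Where SSCT F0 is described its libraries are therefore given one by one, and the dependence of these values on input DNA was not tested. As a check of the cell type, the gene H19, whose control region is methylated in sperm, had 18 of 26 nearby positions at or above 50% and a median of 95.1%. Peg3, Snrpn, Mest and Peg10, imprinted on the maternal allele, had 5 of 31, 9 of 25, 6 of 33 and 16 of 48, with medians of 1.31 to 8.32%. SSCT F0 replicate 3 read 0.0282% at H19. Of the 26 H19 positions 8 averaged 10% or less, and replicate 3 covered 13.1% of the genome positions at or below 10% in the other libraries, against 1.37% of the highly methylated ones. Its H19 value may thus rest on low positions alone and cannot decide on its label as sperm. The added unmethylated control DNA read 0.542 to 1.26% methylated, so levels up to 1.26% cannot be distinguished from incomplete conversion.

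Promoter sequence and methylation could be set side by side for some Hox genes. RefSeq (GRCm38.p6) promoter windows, 250 bases before to 50 after a gene start, matched 22 Hox genes in 24 windows, of which 13 had at least 3 measured positions. In 12 of these 13 the mean lay between 0.784 and 3.32%, and in the window of Hoxd4, which encodes a homeodomain factor of the hindbrain and neck vertebrae, it was 94.97%. This window lies at the upstream end of the RefSeq span of Hoxd4 (74721978 to 74729160), and most of the gene was low. Of 84 positions over the span with 2000 bp on either side, 61 averaged 10% or less. Around Mir10b, inside the span, 54 positions within 2000 bp averaged 1.87%. The 250 bases before the start are shown for Hoxd4 and, for contrast, for promoters at a low level. These are the promoter with the lowest level (Hoxd1), the one with the most CpGs (Hoxa13) and one with fewer CpGs than either (Hoxd12). Capitals mark the CpGs that were measured.
Hoxd4, chr2:74721728-74721977, plus strand: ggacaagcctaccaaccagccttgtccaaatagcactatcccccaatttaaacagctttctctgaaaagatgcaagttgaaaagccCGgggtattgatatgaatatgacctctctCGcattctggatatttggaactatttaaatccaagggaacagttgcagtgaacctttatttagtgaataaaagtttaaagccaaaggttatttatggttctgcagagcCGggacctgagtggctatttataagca
Hoxd12, chr2:74674763-74675012, plus strand: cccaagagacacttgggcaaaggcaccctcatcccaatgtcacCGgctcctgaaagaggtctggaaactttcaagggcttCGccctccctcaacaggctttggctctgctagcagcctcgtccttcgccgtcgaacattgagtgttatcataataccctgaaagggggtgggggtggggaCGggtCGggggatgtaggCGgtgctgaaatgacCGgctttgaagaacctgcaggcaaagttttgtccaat
Hoxd1, chr2:74762730-74762979, plus strand: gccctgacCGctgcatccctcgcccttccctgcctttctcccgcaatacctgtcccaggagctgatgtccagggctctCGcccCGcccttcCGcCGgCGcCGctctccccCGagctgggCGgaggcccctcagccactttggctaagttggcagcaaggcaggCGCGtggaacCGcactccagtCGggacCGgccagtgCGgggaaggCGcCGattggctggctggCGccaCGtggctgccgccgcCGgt
Hoxa13, chr6:52260881-52261130, minus strand: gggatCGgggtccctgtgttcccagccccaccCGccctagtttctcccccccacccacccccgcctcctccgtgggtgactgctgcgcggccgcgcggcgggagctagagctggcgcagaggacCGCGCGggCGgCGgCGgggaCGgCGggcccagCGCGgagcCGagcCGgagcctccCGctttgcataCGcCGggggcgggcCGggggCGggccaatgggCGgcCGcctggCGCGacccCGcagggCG
The Hoxd4 stretch holds 3 CpGs, all measured, whereas that of Hoxd12 holds 10 with 6 measured, that of Hoxd1 24 with 20 measured and that of Hoxa13 35 with 25 measured. Over the 300 bases the window of Hoxd4 held 4 CpGs, against a median of 14.5 over the 24 Hox windows and 7.0 over 32851 promoters of all genes, of which 68.6% held at least 4. The window means were 2.59% for Hoxd12, 0.784% for Hoxd1 and 0.948% for Hoxa13, and the Hoxa9 window, which also held 4 CpGs, had 1 measured position, at 34.4%. The methylation of the Hoxd4 window was seen in every group of offspring: it was 100, 95.4, 97.8, 96.3 and 100% in the control F1 libraries, 94.2 to 100% in SSCT F1, 97.0 to 100% among the SSCT F2/M mice and 95.4 to 100% among the SSCT F2/P mice. Control F0 read 94.0, 98.2 and 94.6%. SSCT F0 replicate 1 read 86.4% and replicate 2 read 42.9%, both below every other library, and replicate 3 had no read there.

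The clusters also carry microRNAs, which lie among the Hox genes and repress Hox messages among others. Their mature sequences (RefSeq) are given because loci with the same seed differed in methylation; the seed, bases 2 to 8, is in capitals.
mmu-miR-196a-5p: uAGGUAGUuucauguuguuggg
mmu-miR-196b-5p: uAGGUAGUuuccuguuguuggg
mmu-miR-10a-5p: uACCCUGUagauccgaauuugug
mmu-miR-10b-5p: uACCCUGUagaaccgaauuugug
mmu-miR-615-3p: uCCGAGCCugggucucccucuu
The loci Mir196a-1, Mir196a-2 and Mir196b share the seed AGGUAGU, and Mir10a and Mir10b share ACCCUGU. Within 500 bp of Mir196a-1, in the Hoxb cluster (chr11:96265164-96265265), 5 positions averaged 91.2%, with a range over positions of 86.4 to 95.7%. Around Mir196b, in Hoxa, 43 positions averaged 1.59%, and around Mir615, in Hoxc, 42 positions averaged 1.79%. Mir196a-2 and Mir10b each had 1 position, at 27.3 and 5.97%, and Mir10a had none within 500 bp but averaged 3.74% over 56 positions within 2000 bp. The high level was local: within 2000 bp Mir196a-1 averaged 15.5% over 37 positions, against 5.07% over 18 around Mir196a-2 and 2.86% over 106 around Mir196b, and Mir10b averaged 1.87% over 54.

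Over all 4 clusters methylation was low, and it fell into 2 levels. In the 23 libraries other than SSCT F0 the Hox mean was 5.36% ± 0.290 (SD), against 36.1% ± 1.41 over the genome. Hoxb (7.54% ± 0.551) and Hoxc (7.52% ± 0.614) lay above Hoxd (3.69% ± 0.281) and Hoxa (3.38% ± 0.352). The lowest Hoxb or Hoxc value of these libraries was 6.21% and the highest Hoxa or Hoxd value was 4.30%, so these 2 pairs did not overlap, whereas the members of each pair did not differ beyond their spread. This is a description, since positions of a cluster share their libraries and different positions were read in each.

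**Figure D1:**
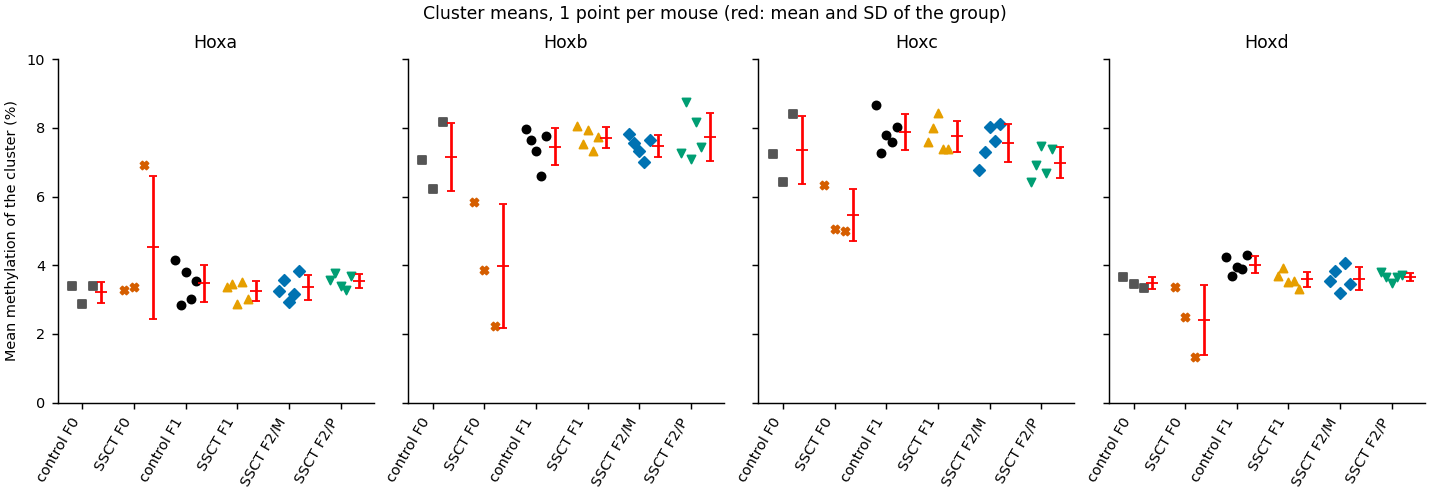
Mean methylation of each Hox cluster (%, vertical axis) in every mouse, over the positions with at least 10 reads in that library; points are mice, by group, and red marks are the group mean with bars of 1 SD (n = 3 in the F0 groups and 5 in the offspring groups). Hoxb and Hoxc lie above Hoxa and Hoxd in the offspring and control F0, and the SSCT F0 libraries spread from 1.34% (Hoxd, replicate 3) to 6.92% (Hoxa, replicate 3).

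By group, Hoxa averaged 3.21% ± 0.303 in control F0 (SD, n = 3), 3.47% ± 0.55 in control F1, 3.24% ± 0.284 in SSCT F1, 3.35% ± 0.355 in SSCT F2/M and 3.53% ± 0.205 among SSCT F2/P mice (n = 5 each). Hoxb averaged 7.15% ± 0.989, 7.46% ± 0.535, 7.72% ± 0.298, 7.47% ± 0.311 and 7.74% ± 0.700 in the same groups, and Hoxc 7.36% ± 0.992, 7.87% ± 0.521, 7.76% ± 0.452, 7.57% ± 0.551 and 6.98% ± 0.447. Hoxd averaged 3.49% ± 0.166, 4.02% ± 0.248, 3.60% ± 0.218, 3.61% ± 0.335 and 3.66% ± 0.113. The values of these 5 groups overlapped in Hoxa, Hoxb and Hoxc; in Hoxd control F1 (3.70 to 4.30%) lay above control F0 (3.33 to 3.66%), but over the positions read in all libraries of both they overlapped (exact p = 0.339). In SSCT F0, replicates 1, 2 and 3 read 3.27, 3.38 and 6.92% in Hoxa, 5.84, 3.85 and 2.24% in Hoxb, 6.35, 5.07 and 5.00% in Hoxc, and 3.36, 2.51 and 1.34% in Hoxd. Replicate 3 was the lowest of the 3 in Hoxb, Hoxc and Hoxd and the highest in Hoxa.

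Most positions were close to unmethylated, and a small class was close to fully methylated. Of the positions with at least 10 reads in 13 or more libraries, 94.9% of 1402 in Hoxa, 89.7% of 1300 in Hoxb, 87.9% of 1051 in Hoxc and 94.7% of 1354 in Hoxd averaged 10% or less. At or above 50% lay 1.14, 4.62, 5.33 and 1.62%. The medians of 0.993% in Hoxa, 1.34% in Hoxb, 1.25% in Hoxc and 0.943% in Hoxd lay within or near the range of the unmethylated control. The share of methylated positions thus differed more between the pairs of clusters than the medians did. The longest unbroken run of positions at or below 10% held 248 positions over 13183 bp across Hoxa10 and Hoxa11 in Hoxa, 138 over 17034 bp across Hoxb2 and Hoxb1 in Hoxb, 130 over 4935 bp at Hoxc6 and Hoxc5 in Hoxc, and 280 over 7938 bp across Hoxd9 and Hoxd8 in Hoxd.

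The methylated positions lay further apart from each other than the unmethylated ones did. The median distance to the next measured CpG of the same class was 9 to 12 bp in the class at or below 10%. In the class at or above 50% it was 256.5, 136, 65 and 63 bp in Hoxa, Hoxb, Hoxc and Hoxd. Members of a class with few positions lie further apart for that reason alone, so these distances do not measure how dense CpGs are around them. Between the gene spans 57 of 1354 positions (4.21%) reached 50%, and inside them 97 of 3753 (2.58%). In 1000 bp windows with at least 20 measured positions, 89 of 90 Hox windows averaged 10% or less and none reached 50%, against 96.0% of 17003 windows in the rest of the genome at or below 10% and 2.18% at or above 50%. The median of these dense windows was 1.78% in the Hox clusters and 1.55% elsewhere, so dense Hox windows were as low as other dense windows, and the Hox mean of 5.36% lay above the 2.81% of all CpG-dense windows.

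Outside the clusters methylation rose on most sides. In the 100 kb beyond each cluster, listed by genome coordinate, the same 23 libraries averaged 29.3 and 11.9% around Hoxa, 52.0 and 41.0% around Hoxb, 51.1 and 22.02% around Hoxc, and 5.69 and 18.9% around Hoxd. The low side of Hoxd lies next to Hoxd13 and holds Evx2, a homeobox gene beside the Hox cluster, which averaged 1.93%. Skap1 near Hoxb and Cbx5 near Hoxc, neighbours that encode a signalling adaptor and a heterochromatin protein, averaged 58.8 and 45.6%, and Skap2 near Hoxa averaged 34.6%. Cbx5, Skap2 and most of Skap1 lie beyond the 100 kb. Evx1 near Hoxa and Mtx2 near Hoxd averaged 8.57 and 5.91%. The means of these neighbouring genes are over all libraries with a value, SSCT F0 included.

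**Figure D2:**
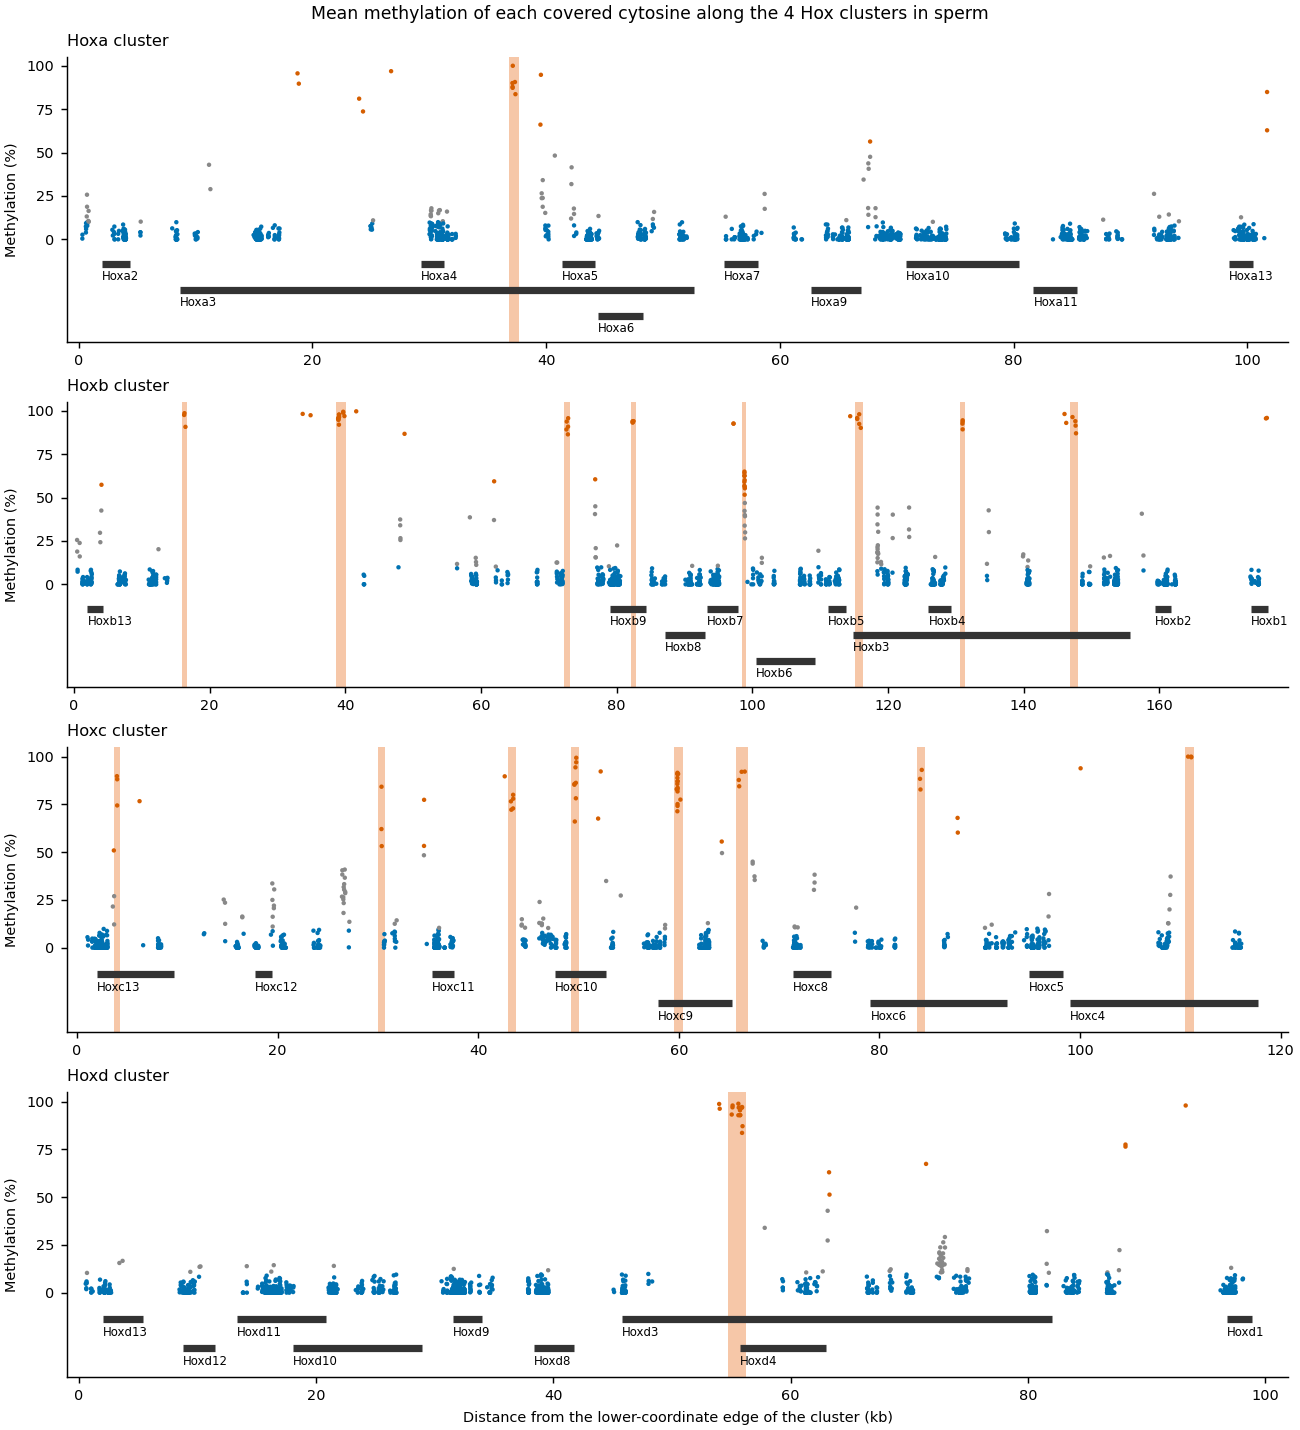
Mean methylation of every measured position (%, vertical axis) against its distance in kb from the lower-coordinate edge of its cluster, for Hoxa, Hoxb, Hoxc and Hoxd; points are means over the libraries with at least 10 reads, in blue at or below 10%, grey between and orange at or above 50%, shaded strips, slightly widened, are the methylated islands, and dark bars are gene spans. The blue points fill all 4 clusters, and the orange points stand mostly in the strips, 1 in Hoxa, 1 in Hoxd, 8 in Hoxc and 9 in Hoxb, where those of islands 2 and 3 touch.

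All 38 genes, taken as their span with 2000 bp on either side, had a value in 25 or 26 libraries, and their means ran from 1.42 to 20.5%; SSCT F0 replicate 3 had too few positions (under 5) for Hoxa2, Hoxa13, Hoxb1, Hoxb6 and Hoxd1. Below 2% lay 11 genes, below 5% 23 and below 10% 35; Hoxc9, Hoxc10 and Hoxd4 exceeded 10%. Positions between close genes count for both. Within Hoxa the highest was Hoxa5, a factor needed for lung and neck vertebrae, at 5.35% ± 1.75 (SD over 26 libraries), and the lowest was Hoxa10, which patterns the uterus and limb, at 1.59%. Within Hoxb they were Hoxb5 at 7.88% ± 2.62 and Hoxb8 at 1.68%, within Hoxc Hoxc10 at 12.8% ± 1.97 and Hoxc5 at 3.46% ± 1.82, and within Hoxd Hoxd4 at 20.5% ± 5.21 and Hoxd8 at 1.42%. Hoxb3 (7.87%) and Hoxb1 (7.69%), Hoxb6 (7.61%) and Hoxd3 (7.48%) followed Hoxb5 within less than their spread, and Hoxb13 (7.27%) and Hoxb7 (6.93%) were next. For Hoxb1 1 SSCT F2/P library read 19.7%, and the other 4 of its group read 4.59 to 7.11%.

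Hoxd4 was the highest gene in every group of offspring. Its mean was 22.6% ± 1.82 in control F1, 23.7% ± 3.82 in SSCT F1, 21.3% ± 1.47 in SSCT F2/M and 21.3% ± 2.82 among SSCT F2/P mice (n = 5 each), and 19.5% ± 2.34 in control F0 (n = 3). The control F1 libraries read 24.7, 20.8, 23.8, 20.5 and 23.0%, within the range of the SSCT F1 libraries, 19.6 to 28.8%. SSCT F0 replicates 1, 2 and 3 read 16.2, 14.7 and 0.0%, all below every other library, replicate 3 over 9 positions. The level depended on the flank: without the added 2000 bp Hoxd4 averaged 9.04% and Hoxc10 25.04%, which then was the highest gene.

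Hoxc10 and Hoxc9, which pattern the lumbar and thoracic body and the limbs, were the next. Hoxc10 averaged 13.3% ± 1.56 in control F0, 13.02% ± 0.725 in control F1, 13.5% ± 2.84 in SSCT F1, 13.3% ± 1.97 in SSCT F2/M and 11.5% ± 2.14 among SSCT F2/P mice, and SSCT F0 replicates 1, 2 and 3 read 9.63, 12.3 and 13.6%, so that all groups overlapped. Hoxc9 averaged 11.7% ± 3.26 in control F0, 13.1% ± 1.74, 13.5% ± 1.07, 11.8% ± 2.79 and 12.4% ± 0.850 in the offspring groups in the same order. SSCT F0 replicates 1, 2 and 3 read 9.03, 4.18 and 0.60% over Hoxc9. The low genes were low in all offspring groups: Hoxd8 averaged 1.23 to 2.14%, Hoxa10 1.39 to 1.76% and Hoxb8 1.70 to 2.03%.

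**Figure D3:**
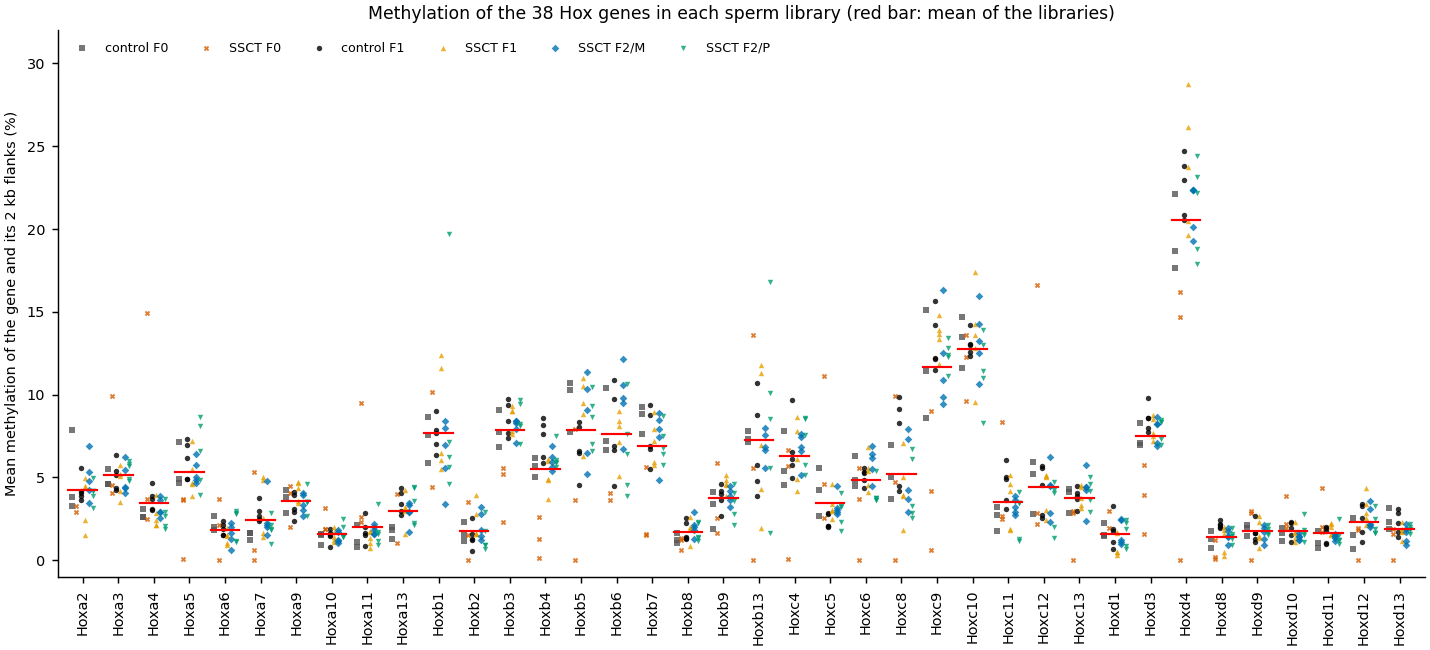
Mean methylation (%, vertical axis) of the 38 Hox genes with 2000 bp on either side, in cluster order; points are libraries, by group, and red bars the mean over the libraries. The red bar of Hoxd4 stands alone at 20.5%, those of Hoxc10 and Hoxc9 lie at 12.8 and 11.7%, and those of the other 35 genes lie below 10%.

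By paralogue class, genes of groups 1 to 4 (anterior, 11 genes) averaged 5.90% ± 0.660 over libraries, groups 5 to 8 (central, 11 genes) 4.20% ± 0.814 and groups 9 to 13 (posterior, 16 genes) 3.91% ± 0.330. The order did not hold within every cluster. It ran 5.11, 3.88 and 2.43% in Hoxa and 6.44, 5.45 and 4.51% in Hoxb, but 6.31, 4.58 and 7.50% in Hoxc and 6.30, 1.42 and 1.82% in Hoxd. Paralogues at the same place differed widely in some groups: group 4 ran from 3.47% (Hoxa4) to 20.5% (Hoxd4), group 9 from 1.74% (Hoxd9) to 11.7% (Hoxc9) and group 10 from 1.59% (Hoxa10) to 12.8% (Hoxc10). Group 11, by contrast, stayed between 1.67% (Hoxd11) and 3.52% (Hoxc11).

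Inside the low clusters 19 methylated islands were found, 9 in Hoxb, 8 in Hoxc, 1 in Hoxa and 1 in Hoxd. An island was a run of at least 3 measured positions, each with a mean of at least 50% and no more than 500 bp from the next. The islands were found on the means of all 26 libraries, so that their level is a description, and they are numbered by position within the cluster. They held 106 positions, 2.08% of those measured and 68.8% of those at or above 50%, spanned 9 to 911 bp and averaged 61.5 to 99.88%, with 10 at 90% or more. Of the 19, 11 lay over a Hox gene span and 8 between, and 14 Hox genes had an island within 2000 bp.

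The longest was the Hoxd island (chr2:74721254-74722164, 14 positions, 94.3%). It covers the start of Hoxd4 shown above and lies within the long RefSeq span of Hoxd3. It averaged 97.6% ± 3.29 in control F1, 95.3% ± 7.15 in SSCT F1, 96.5% ± 2.39 in SSCT F2/M, 97.0% ± 1.95 in SSCT F2/P (n = 5 each) and 91.7% ± 7.80 in control F0 (n = 3). SSCT F0 replicates 1 and 2 read 87.7 and 61.9%; replicate 2 was the lowest of the 25 libraries with a value. The Hoxa island (chr6:52197524-52197782, 6 positions, 89.9%) lay between Hoxa4 and Hoxa5 inside the long span of Hoxa3, and the nearest measured positions on either side read 1.92 and 66.1%.

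In Hoxb, islands 1 to 3 lay in the wide gap between Hoxb13 and Hoxb9, where island 2 (chr11:96231269-96231412) averaged 95.6% over 8 positions, and the nearest position beyond island 3 read 99.7%. Island 4 (chr11:96264916-96265170) reached the first bases of the Mir196a-1 hairpin and ended before its mature sequence. It read 88.5, 100 and 72% in 3 control F1 libraries, 95.4 to 100% in SSCT F1, 91.7 to 100% among SSCT F2/M mice, 79.0 to 100% among SSCT F2/P mice, 100, 50.0 and 100% in control F0 and 82.6% in SSCT F0 replicate 1. Island 5 lay in Hoxb9, island 6 (61.5%, the lowest mean) between Hoxb7 and Hoxb6, and islands 7 to 9 in the long span of Hoxb3, island 7 beside Hoxb5 and island 8 beside Hoxb4.

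In Hoxc, island 1 lay in Hoxc13, island 2 near the noncoding RNA Hotair, island 3 (chr15:102962387-102962613) between Hoxc11 and Hoxc10, island 4 (86.5%, 8 positions) in Hoxc10, islands 5 and 6 in and beside Hoxc9, island 7 in Hoxc6 and island 8 (99.88%) in Hoxc4. Island 5 (chr15:102978910-102979282, 16 positions, 83.9%) had the most positions, and its nearest neighbours on either side read 11.9 and 1.49%. It averaged 84.7% ± 4.09 in control F0, 85.5% ± 5.16 in control F1, 84.6% ± 5.40 in SSCT F1, 87.8% ± 6.29 in SSCT F2/M and 83.4% ± 4.91 among SSCT F2/P mice. SSCT F0 replicates 1, 2 and 3 read 84.9, 54.8 and 0.0%, with coverage summed over the positions of 422, 377 and 1286. Replicate 1 thus lay among the other libraries and replicates 2 and 3 below them.

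The low values at islands in SSCT F0 differed between its libraries. Replicate 3 covered 5 islands, all of them below 10%, replicate 2 covered 10, of which 3 were below 50%, and replicate 1 covered 17, with none below 50% and a median of 90.5%. The medians of the other 23 libraries were 90.1 to 100%. Replicates 2 and 3 were also the libraries that read low at highly methylated positions over the genome, as given above.

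**Figure D4:**
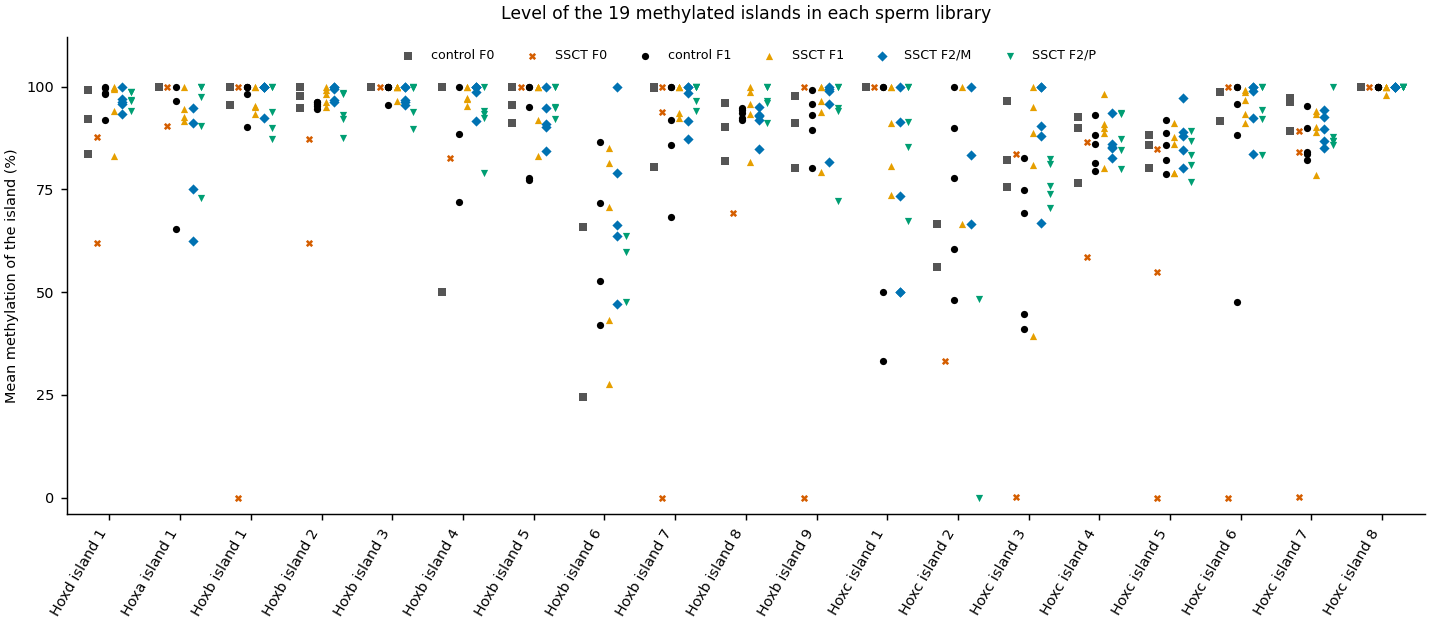
Mean methylation (%, vertical axis) of the 19 islands, along the horizontal axis by cluster; points are libraries with at least 1 position of at least 10 reads in the island, by group. All but 1 of the points near 0 are SSCT F0 libraries, 5 of them replicate 3, and the lowest-lying islands of the other groups are Hoxb island 6 and Hoxc islands 1 to 3.

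The mean over all Hox positions did not pass the test in any comparison. It used, per comparison, the positions with at least 10 reads in every library and 1 value per mouse in a two-sided exact permutation test. SSCT F1 averaged 5.39% ± 0.257 and control F1 5.43% ± 0.224 over 1984 positions, a difference of -0.039 percentage points (95% interval from inverting the permutation test, -0.397 to 0.305; p = 0.849). SSCT F2/M differed from control F1 by 0.062 points (-0.326 to 0.478, 2274 positions, exact p = 0.762) and SSCT F2/P by -0.048 points (-0.411 to 0.294, 2418 positions, exact p = 0.770). SSCT F2 pooled, which joins the mice of both F2 groups, differed by 0.028 points (exact p = 0.835) and control F0 from control F1 by 0.013 points (exact p = 0.929). SSCT F0 differed from control F0 by 0.209 points over 390 positions (exact p = 0.6, where 0.1 is the smallest that 3 against 3 mice allow). The adjusted p was 0.929 in all 6, and the comparisons with control F1 share those libraries.

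By cluster, none of 24 tests passed after adjustment, and Hoxc had the smallest p among the offspring. Its mean was 9.45, 9.96, 9.69, 9.22 and 9.50% in the SSCT F1 libraries and 9.43, 9.21, 8.51, 8.81 and 9.14% in control F1. The groups overlapped, with a difference of 0.541 points (interval 0.045 to 1.04, exact p = 0.0159, adjusted p = 0.332). Against the same control F1 libraries the Hoxc difference was 0.565 points in SSCT F2/M (exact p = 0.103), 0.252 in SSCT F2/P (exact p = 0.317), 0.536 in SSCT F2 pooled (exact p = 0.0276, adjusted p = 0.332) and 0.562 in control F0 (exact p = 0.0714). Control F0, which has no SSCT history, was among these groups, and all of them share the control F1 libraries. The sign of the Hoxc difference depended on the processing: in SSCT F1 it was -0.197 points with at least 20 reads, -0.113 over each library's own positions, -0.0499 when weighted by reads and -0.399 under the names of the figure.

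In SSCT F0 the clusters moved in different directions over their few shared positions. Hoxa read 2.63, 2.97 and 5.78% in replicates 1 to 3 and 1.74 to 2.51% in control F0, with no overlap (1.55 points, 128 positions, exact p = 0.1, adjusted p = 0.413). Hoxd read 3.05, 2.68 and 3.35% against 1.44, 2.48 and 2.55%, also with no overlap (exact p = 0.1). Hoxc read 12.2, 8.99 and 4.99% against 11.8 to 13.1% (-3.68 points, 70 positions, exact p = 0.2). Without replicate 3 at the same positions the differences were 0.563 points in Hoxa, 0.712 in Hoxd and -1.81 in Hoxc. The difference between the SSCT effects of F0 and F1, tested by permuting mice within generations, had adjusted p of 0.0635 in Hoxa, 0.0814 in Hoxb, 0.0635 in Hoxc, 0.125 in Hoxd and 0.497 over all Hox positions in exact permutation tests. The 2 effects were measured over different positions, 128 in F0 and 597 in F1 for Hoxa and 70 and 430 for Hoxc. Generation and choice of positions thus cannot be told apart in this difference. The SSCT F0 differences also changed sign over each library's own positions, to -3.18 points in Hoxb, -1.09 in Hoxd and -1.19 over all Hox positions.

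Single CpGs and 1000 bp windows were called by a chi-square likelihood-ratio test over the whole genome, at q below 0.01 and a read-weighted difference above 25 points. This test takes no account of how far mice of a group differ. In SSCT F0, 24 of 378 tested Hox CpGs were called (6.35%), against 5.83% of CpGs in the genome, and 6 of 84 windows (7.14%), against 10.0%. In SSCT F1, 7 of 1972 Hox CpGs (0.355%) were called against 0.462% in the genome, and 0 of 206 windows against 0.415%, with 0 Hox windows also at an unadjusted p under 0.05 and over 25 points. In SSCT F2/M, 5 of 2262 CpGs (0.221%) were called against 0.42%, and 1 of 209 windows (0.478%) against 0.363%. In SSCT F2/P, 5 of 2405 CpGs (0.208%) were called against 0.43%, and 0 of 213 windows against 0.392%, again 0 at an unadjusted p under 0.05. In SSCT F2 pooled, 1 of 1988 CpGs (0.0503%) was called against 0.187%, and 0 of 202 windows against 0.143%, again 0 unadjusted. Between control F0 and control F1, 12 of 2626 CpGs (0.457%) were called against 0.863%, and 2 of 218 windows (0.917%) against 0.855%. The Hox shares thus lay near or below the genome's. Scaled for the spread between mice, the F test called 0 Hox features and 0.0% of the genome in each comparison; at an unadjusted p under 0.05 and over 25 points it left 4, 6, 2, 2, 1 and 7 Hox CpGs in the same order, and 1.1, 0.239, 0.214, 0.223, 0.133 and 0.353% of the CpGs of the genome. Of the Hox windows it left 1 in SSCT F0 and 0 in the others.

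**Figure D5:**
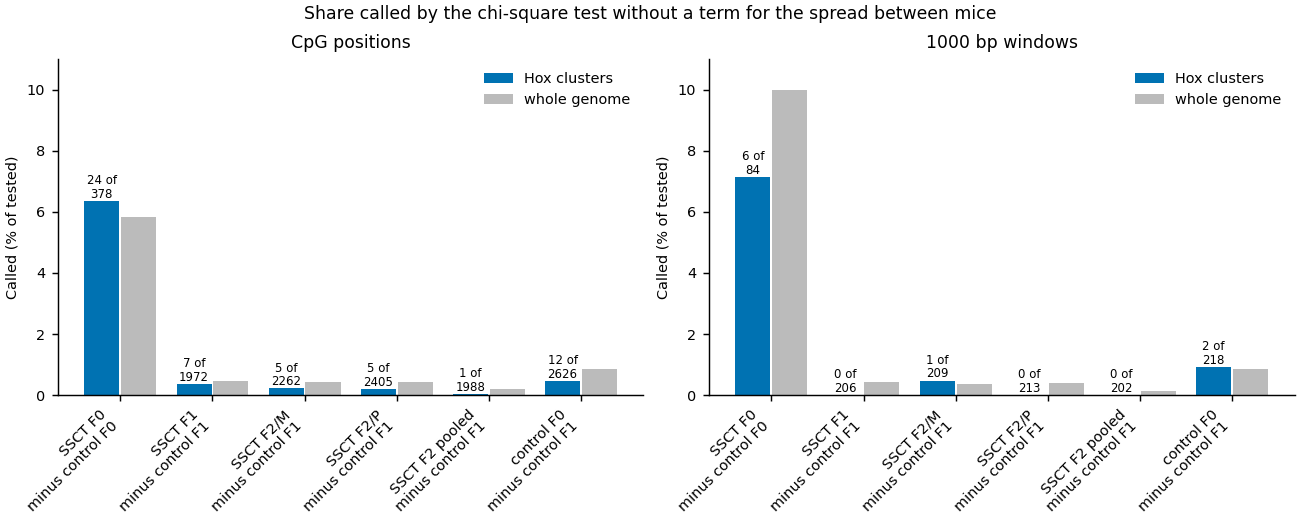
Percentage of tested features called by the chi-square test (vertical axis), for CpGs and for 1000 bp windows, in the Hox clusters and in the whole genome, by comparison; bars start at 0. SSCT F0 reaches 6.35% of Hox CpGs, and every other comparison stays below 1% in both the Hox clusters and the genome.

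In SSCT F0 most called CpGs rested on replicate 3. Of the 24, 16 were higher and 8 lower; in 20 replicate 3 read exactly 0 or 100%, and in 16 it alone lay over 25 points from the control mean. At a CpG in Hoxd3, a gene of the neck skeleton, the 3 libraries read 0.0, 3.1 and 100% against 0.0% in each control (chr2, 74736290; 87.9 points). Hoxc11 (102955110; 0.0, 0.0 and 100%), Hoxa13 (52259811; 0.0, 0.0 and 100%) and the CpG in Hoxd11 (74683157; 0.0, 2.4 and 100%) had the same form, with control values of 0.0 to 9.2%, and 5 neighbouring CpGs in Hoxa4, inside the span of Hoxa3, also read 0.0, 0.0 and 100%, against control values of 0.0 to 34.6% (52190655 the highest). Beside Hoxa10 (52230003) they read 0.0, 0.0 and 54.98% against 0.0%. Of the 24, 3 had groups that did not overlap. Without replicate 3, 78 of 2513 Hox CpGs were called (3.1%, against 5.83% in the genome), and without replicate 2, 12 of 107 windows (11.2%, against 13.5%).

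Several of the lower CpGs lay in Hoxc islands. In Hoxc9 the CpG at 102978978 of chromosome 15, in island 5, read 86.7, 0.0 and 0.0% in SSCT F0 against 100% in each control (-93.0 points, q = 1.07e-56 by the chi-square test, q = 0.655 by the F test, 12 to 315 reads, exact p = 0.1). In Hoxc6 the CpG at 103003346, in island 7, read 100, 83.7 and 0.1% against 95.5, 98.9 and 100%. In Hoxc5 a CpG at 103015688 read 34.1, 1.6 and 100% against 0.0, 0.0 and 27.3%, and in Hoxb3 one at 96327146 read 100, 26.8 and 100% against 52.6, 28.8 and 0.0%. A CpG in the noncoding RNA gene Hotair, between Hoxc12 and Hoxc11 (102945819, 85 to 1055 reads), was higher in all 3 libraries, at 67.4, 100 and 95.6% against 41.4, 39.9 and 51.8% (51.2 points, exact p = 0.1). Near it, also in Hotair, the CpG at 102945865 was lower, at 26.1, 0.0 and 0.0% against 37.1, 28.6 and 23.5% (-28.3 points).

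Over whole genes with their flanks, replicate 3 was often the extreme SSCT F0 library. Over Hoxa4 replicates 1, 2 and 3 read 2.47, 3.72 and 14.9%, against 2.61 to 3.08% in control F0, and over Hoxa3 they read 4.53, 4.08 and 9.89% against 4.58 to 5.50%. Hoxc5 read 4.62, 2.54 and 11.1% against 2.67 to 5.56%, and Hoxc11 2.47, 2.69 and 8.38% against 1.75 to 3.20%. In these 4 genes replicate 3 lay above all control libraries, and of the other libraries only replicate 2 over Hoxa4 did. Hoxd11 read 1.99, 1.72 and 4.36% against 0.764 to 1.80%, and Hoxd10 2.16, 1.96 and 3.86% against 1.16 to 1.93%, so that Hoxd10 did not overlap with the controls. Hoxd3 read 5.78, 3.91 and 1.61% against 6.98 to 8.29%, and Hoxb3 5.23, 5.54 and 2.33% against 6.85 to 9.10%, all 3 libraries below the controls in both. Hoxc6 read 5.59, 3.68 and 0.039% against 4.46 to 6.31%, and Hoxa13, without a value in replicate 3, read 3.97 and 1.02% against 1.29 to 1.98%. Replicate 3 rests on 9 to 81 positions in those of these genes in which it had a value. In the 4 offspring groups the same genes averaged 7.83 to 8.54% (Hoxd3), 2.62 to 3.67% (Hoxa4), 4.76 to 5.44% (Hoxa3), 4.04 to 5.90% (Hoxc6), 2.37 to 3.29% (Hoxc5), 8.02 to 8.55% (Hoxb3), 2.69 to 4.54% (Hoxc11), 2.87 to 3.53% (Hoxa13), 1.42 to 1.91% (Hoxd11) and 1.39 to 1.84% (Hoxd10).

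Among the offspring 4 places were singled out after their values had been seen, for a call in more than 1 comparison or for the size of the difference. In Hoxa4 the CpG at 52190592 of chromosome 6 read 30, 52.9, 11.5, 27.8 and 69.2% in control F1 and 0.0, 0.0, 8.5, 0.0 and 0.0% in SSCT F1, with no overlap (-32.9 points, chi-square q = 2.45e-10, F test q = 0.626, 13 to 47 reads, exact p = 0.00794, the smallest that 5 against 5 allow). In SSCT F2/P it read 33.3% in 1 library and 0.0% in the other 4 (-26.4 points, exact p = 0.0317). Among the calls of SSCT offspring against control F1, the one in SSCT F1 at this CpG was the 1 call without overlap between the groups.

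In Hoxc4, at 103028154 of chromosome 15, control F1 read 38.5, 56.2, 68.97, 52.7 and 75.3% and SSCT F1 22.2, 2.8, 40, 26.9 and 19.6% (-37.7 points, exact p = 0.0159). The same CpG was called in SSCT F2/M (-25.8 points, exact p = 0.0794) and, against control F0, in SSCT F0 (-34.5 points, exact p = 0.3), where replicates 1, 2 and 3 read 50.0, 0.0 and 0.0% against 46.7, 24.5 and 57.4%. In Hoxd3, at 74739086 of chromosome 2, SSCT F1 read 48.8, 53.6, 70.8, 6.7 and 37.8% and control F1 0.0, 9.7, 0.0, 10.0 and 4.4% (40.1 points, exact p = 0.0238), and 1 SSCT F1 library lay inside the control range. Other calls rested on fewer mice: in Hoxc13 (102921628) 3 SSCT F1 libraries read 40 to 45% and the other 2 0.0%, and beside Hoxc11 (102953722) 4 control F1 libraries read 68.6 to 100% and 1 read 0.0%, against 0.0 to 40.4% in SSCT F2/M.

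The fourth place was Hoxc island 3, between Hoxc11 and Hoxc10. Its CpG at 102962613 was called in SSCT F1 (25.4 points), SSCT F2/M (28.1), SSCT F2/P (29.8) and SSCT F2 pooled (29.2, exact p = 0.00666), always against the same 5 control F1 libraries, which read 27.8, 90.5, 0.0, 77.8 and 50.0%. The CpG beside it at 102962598 was called in control F0 against control F1 too (45.1 points), and the 1000 bp window from 102962001 in SSCT F2/M (25.9 points) and in control F0 (33.9 points). Over all its measured positions the island read 74.8, 82.7, 41.0, 69.2 and 44.6% in control F1, 96.4, 82.1 and 75.5% in control F0, 70.6 to 82.5% among SSCT F2/P mice, 66.8 to 100% among SSCT F2/M mice and 39.2 to 100% in SSCT F1. Control F1 thus had the lowest mean (62.4%) of these 5 groups, the older controls included. Under the names of the figure, which give other libraries as control F1, the difference of this island was -6.72 points in SSCT F1, -35.1 in SSCT F2/M, -7.92 in SSCT F2/P and -21.5 in SSCT F2 pooled.

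Over the islands, 53 tests were made and none passed after adjustment (smallest adjusted p 0.421), and 2 had an exact p under 0.05. Hoxc island 3 averaged 86.4% ± 12.1 in SSCT F2 pooled and 54.6% ± 32.8 in control F1 over shared positions (31.8 points, exact p = 0.0147). Hoxb island 2 averaged 98.9% ± 1.86 in SSCT F2/M and 94.5% ± 1.36 in control F1 (4.42 points, exact p = 0.0159), a difference of 1.10 points with at least 20 reads. Hoxc island 5 ran from 0.0 to 71.97% in the SSCT F0 libraries and from 82.3 to 97.4% in control F0, with no overlap (-46.1 points, exact p = 0.1); with at least 20 reads the difference was -37.6 points (exact p = 0.2).

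Where no window was called, the smallest q was that of the window from 96251001, in the gap between Hoxb13 and Hoxb9, in SSCT F1 (-1.69 points), and that of the window of Hoxc island 3, from 102962001, in SSCT F2/P (23.0 points) and SSCT F2 pooled (24.0 points). In Hoxc8 the window from 102992001 read 23.9, 9.3, 34.7, 16.8 and 24.3% in SSCT F1 and 43.9, 37.8, 42.9, 44.9 and 35.8% in control F1, with no overlap (-17.8 points, exact p = 0.00794). It was picked for its small q in the same mice, so this exact p does not stand as a separate test. Over the whole gene, which includes this window, Hoxc8 averaged 4.36% ± 1.90 in SSCT F1 and 7.19% ± 2.67 in control F1. The SSCT F2/M mice averaged 5.22% ± 2.25, the SSCT F2/P mice 4.32% ± 1.95 and control F0 5.23% ± 1.65. Control F1 thus had the highest mean of these groups, the older controls included, and all of them overlapped. The other windows among the 3 of smallest q were from 74738001 (Hoxd3) in SSCT F1, 96241001 and 96292001 (reaching into Hoxb6) in SSCT F2/P, and 52219001 (beside Hoxa7) and 96241001 in SSCT F2 pooled.

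Genes that act with the clusters were read in the same libraries, as span with 2000 bp on either side. The means are over all libraries with a value, SSCT F0 included. Of 11 Polycomb and Trithorax genes, which hold Hox genes silent or active, 6 averaged 10% or less and Cbx2 (20.5%) and Kmt2a (30.6%) reached 20%. Kdm6b averaged 19.6%, with 8.14% in SSCT F0, 18.99% in control F0 and 19.98 to 22.6% in the offspring groups. Of 6 ParaHox genes and Hox regulators, 4 lay at 10% or less and none reached 20%, from Gsx2 (1.13%) to Cdx4 (14.5%). Of 15 noncoding RNAs and genes within or next to the clusters 10 lay at 10% or less, and Skap1, Skap2 (34.6%) and Cbx5, all outside the clusters, reached 20%.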

How the data were processed

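RRBS libraries of 26 sperm samples had been sequenced as single reads by the authors, who trimmed them with Trim Galore 0.4.1, aligned and called methylation with Bismark 0.20.0 and compared groups with methylKit 1.7.0, per the submitters' processing notes, which name FastQC and the builds GRCm38 and mm10 without further settings. The authors deposited, at single-base resolution with each strand listed by itself, the methylated fraction of a CpG and its coverage as counts of reads. Fractions times coverage were rounded to whole methylated reads and given as percentages. Groups were taken from the sample titles, and each library is 1 mouse. The members and all lists were chosen with earlier results of these data known.

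Positions needed at least 10 reads; the clusters and genes were RefSeq spans of GRCm38.p6 with 2000 bp on either side. Values of 1 mouse each were compared by two-sided exact permutation tests with Benjamini-Hochberg adjustment (threshold 0.05) over 6 comparisons for all Hox positions, over 24 tests for clusters and over 53 for islands. CpGs and 1000 bp windows were tested over the whole genome by a logistic likelihood-ratio (chi-square) test, as in methylKit, with coverage of at least 10 reads and at most the 99.9th percentile in every library of a comparison, and by an F test whose scale was the Pearson chi-square per degree of freedom. The tests were tested on simulated data. The difference in the effect of SSCT between generations was tested by regrouping mice within each generation. Islands joined at least 3 positions at or above 50%, at most 500 bp apart, each with 10 reads in at least 13 libraries.

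Genes given with values were the highest and lowest of each cluster, genes with an island or a call (the 12 with the largest difference) and, where nothing was called, the 3 features of smallest q. Alternatives were 5 or 20 reads, read-weighted means, merged strands, no coverage limit or one for means, spans without the 2000 bp, each library's own positions, the names of the clustering figure, the replicate number as a block, 10 points, other island settings, and leaving out each library; leaving out SSCT F0 replicate 3 at the same positions was added after seeing the data. Coverage summed over the listed positions was 45616751 to 87707577 per library, where a read over several CpGs counts more than once. With 24 to 44 reads per Hox position in most libraries a single level is uncertain by several percentage points from counting error only. Work was done in Python 3.11.15 with numpy 2.4.6, pandas 2.3.3, scipy 1.17.1 and matplotlib 3.10.9.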

Additional observations from a re-analysis of the deposited data

Results flagged for a closer look

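In 17 of 242 groups of 4 or 5 mice (7.02%) that were examined for a cluster, gene or island, 1 mouse lay far from the others, with a gap to its nearest neighbour above the 95% limit of Dixon's test (0.71 of the range for 5 mice). For normal values about 1 in 20 groups would pass this limit. Island values are capped at 100%, often with ties there, and islands, genes and clusters share positions. The share of 7.02% therefore cannot be set against that rate. In control F1, replicate 3 read 91.9% in the Hoxd island against 98.1 to 100% in the others, replicate 4 read 90.2% in Hoxb island 1 against 98.1 to 100%, replicate 5 read 95.5% in Hoxb island 3 against 100%, and replicate 1 read 47.7% in Hoxc island 6 against 88.3 to 100% and 5.57% over Hoxa2 against 3.64 to 4.19%. In SSCT F1, replicate 2 read 96.5% in Hoxb island 3 and replicate 3 read 97.9% in Hoxc island 8, against 100% in the others. In SSCT F2/M, replicate 5 read 92.5% in Hoxb island 1 against 100% and 4.77% over Hoxa7 against 1.52 to 2.26%, replicate 4 read 91.7% in Hoxb island 4 against 98.8 to 100% and 81.8% in Hoxb island 9 against 95.9 to 100%, and replicate 2 read 4.46% over Hoxc5 against 2.77 to 3.13%. In SSCT F2/P, replicate 2 read 72.2% in Hoxb island 9 against 94.2 to 100%, replicate 4 read 100% in Hoxc island 7 against 85.8 to 87.7% and 7.48% over Hoxb4 against 5.62 to 6.05%, and replicate 5 read 19.7% over Hoxb1 against 4.59 to 7.11% and 5.40% over Hoxc6 against 3.62 to 3.76%. No mouse was far from its group in more than 2 of these values.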

How the results depend on the processing

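No mean over all Hox positions or over a cluster passed the threshold under the alternatives run for it, and no island passed with 20 reads, under the names of the figure or with a library left out. Island differences were not run under the other island settings, which change the islands themselves; with 20 reads, Hoxc island 3 gave no value. The differences changed sign in 17 of 59 values over all Hox positions when a library was left out and in 14 of 55 under other alternatives. For clusters they did so in 26 of 236 and 50 of 220, and for islands, where not all were close to 0, in 36 of 554 and 37 of 79. Every value that changed sign follows, in percentage points, each SSCT group against the control of its generation or control F1, and control F0 against control F1. The causes were not tested, except that under the names of the figure the libraries of SSCT F2/M and control F1 are exchanged. With 5 reads, the difference over all Hox positions was -0.0493 for SSCT F2/M and -0.0677 for SSCT F2 pooled. In Hoxa it was 0.00635 for SSCT F2/P. In Hoxb it was -0.0493 for SSCT F2/P and 0.0993 for control F0. With 20 reads, the difference over all Hox positions was -0.0113 for SSCT F2/M. In Hoxa it was 0.243 for SSCT F1, 0.0245 for SSCT F2/M and 0.215 for SSCT F2 pooled. In Hoxb it was -0.298 for SSCT F0, -0.375 for SSCT F2/P and 0.233 for control F0. In Hoxc it was -0.197 for SSCT F1, -0.153 for SSCT F2/P and -0.201 for SSCT F2 pooled. In Hoxd it was 0.233 for SSCT F2/M, 0.0506 for SSCT F2/P, 0.238 for SSCT F2 pooled and 0.0203 for control F0. In Hoxb island 2 it was -2.18 for SSCT F1. In Hoxb island 8 it was -0.13 for SSCT F2/P, -0.96 for SSCT F2 pooled and 0.257 for control F0. In Hoxc island 4 it was -0.731 for SSCT F1 and -2.01 for control F0. In Hoxc island 5 it was 7.7 for SSCT F1, 3.48 for SSCT F2/P and 5.99 for control F0. Weighted by reads, the difference over all Hox positions was -0.0389 for SSCT F2/M, -0.16 for SSCT F2 pooled and -0.557 for control F0. In Hoxa it was 0.036 for SSCT F1. In Hoxb it was 0.211 for SSCT F2/M and -0.682 for SSCT F2/P. In Hoxc it was -0.0499 for SSCT F1 and -0.227 for control F0. With strands merged, the difference over all Hox positions was -0.058 for control F0. In Hoxb it was -0.147 for SSCT F0, 0.0343 for SSCT F2/M and -0.0482 for SSCT F2/P. With the coverage limit, the difference in Hoxb was 0.00031 for control F0. Over each library's own positions, the difference over all Hox positions was -1.19 for SSCT F0, -0.18 for SSCT F2/M, -0.195 for SSCT F2 pooled and -0.373 for control F0. In Hoxa it was 0.0657 for SSCT F2/P. In Hoxb it was -3.18 for SSCT F0, 0.26 for SSCT F1, 0.0142 for SSCT F2/M and 0.152 for SSCT F2 pooled. In Hoxc it was -0.113 for SSCT F1, -0.301 for SSCT F2/M, -0.886 for SSCT F2/P, -0.594 for SSCT F2 pooled and -0.507 for control F0. In Hoxd it was -1.09 for SSCT F0. Under the names of the figure, the difference over all Hox positions was -0.0621 for SSCT F2/M, -0.12 for SSCT F2 pooled and -0.0033 for control F0. In Hoxa it was 0.0289 for SSCT F2/M and 0.192 for control F0. In Hoxb it was 0.133 for SSCT F1, 0.0926 for SSCT F2/M, -0.0961 for SSCT F2/P, 0.0968 for SSCT F2 pooled and 0.0983 for control F0. In Hoxc it was -0.399 for SSCT F1, -0.565 for SSCT F2/M, -0.186 for SSCT F2/P, -0.404 for SSCT F2 pooled and -0.181 for control F0. In Hoxd it was 0.0506 for SSCT F1 and 0.125 for SSCT F2/M. In Hoxb island 1 it was 2.25 for SSCT F2/M. In Hoxb island 2 it was -3.51 for SSCT F1, -4.42 for SSCT F2/M, -3.3 for SSCT F2/P and -3.36 for SSCT F2 pooled. In Hoxb island 3 it was 0.895 for SSCT F2/M. In Hoxb island 5 it was -6.63 for SSCT F2/M. In Hoxb island 8 it was 1.95 for SSCT F2/M. In Hoxb island 9 it was 1.48 for SSCT F2/M and 1.65 for control F0. In Hoxc island 3 it was -6.72 for SSCT F1, -35.1 for SSCT F2/M, -7.92 for SSCT F2/P and -21.5 for SSCT F2 pooled. In Hoxc island 4 it was -0.827 for SSCT F2/M. In Hoxc island 5 it was -4.13 for SSCT F2/M and -2.1 for SSCT F2 pooled. In Hoxc island 6 it was 2.29 for SSCT F2/M and 0.0631 for SSCT F2 pooled. In Hoxc island 7 it was -0.327 for SSCT F1, -2.66 for SSCT F2/M, -0.71 for SSCT F2/P and -1.69 for SSCT F2 pooled. In the Hoxd island it was -1.75 for SSCT F1, 0.749 for SSCT F2/M, 0.837 for SSCT F2/P, 0.931 for SSCT F2 pooled and -2.02 for control F0.

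Leaving out 1 library at a time, the difference over all Hox positions ran from -0.115 to 0.0898 for SSCT F1, -0.046 to 0.128 for SSCT F2/M, -0.153 to 0.036 for SSCT F2/P, -0.0654 to 0.0991 for SSCT F2 pooled, -0.124 to 0.101 for control F0 and -0.165 to 0.346 for SSCT F0. In Hoxa it ran from -0.143 to 0.123 for SSCT F2/M, -0.222 to 0.0134 for SSCT F2/P, -0.191 to 0.0226 for SSCT F2 pooled and -0.278 to 0.0371 for control F0. In Hoxb it ran from -0.357 to 0.0541 for SSCT F2/M, -0.208 to 0.233 for SSCT F2/P, -0.339 to 0.0725 for SSCT F2 pooled, -0.26 to 0.162 for control F0 and -0.322 to 0.924 for SSCT F0. In Hoxc it ran from -0.0736 to 0.348 for SSCT F2/P. In Hoxd it ran from -0.341 to 0.0508 for SSCT F1, -0.289 to 0.0589 for SSCT F2/M and -0.365 to 0.98 for SSCT F0. In Hoxb island 1 it ran from -2.81 to 1.41 for SSCT F2/M. In Hoxb island 2 it ran from -1.55 to 1.85 for SSCT F1, -0.0687 to 2.87 for SSCT F2/P and -7.09 to 2.12 for control F0. In Hoxb island 3 it ran from -2.26 to 0.184 for SSCT F2/M. In Hoxb island 9 it ran from -9.68 to 0.741 for SSCT F1, -3.63 to 5.06 for SSCT F2/M, -4.94 to 4.34 for SSCT F2/P and -4.63 to 2.29 for SSCT F2 pooled. In Hoxc island 4 it ran from -0.96 to 2.7 for SSCT F2/M, -0.318 to 2.51 for SSCT F2/P, -0.274 to 2.08 for SSCT F2 pooled and -2.53 to 6.44 for control F0. In Hoxc island 5 it ran from -3.95 to 0.525 for SSCT F1, -2.5 to 1.02 for SSCT F2/P and -2.26 to 2.07 for control F0. In Hoxc island 6 it ran from -4.22 to 1.2 for SSCT F2/M. In Hoxc island 7 it ran from -0.308 to 4.42 for SSCT F2/P. In the Hoxd island it ran from -0.0804 to 1.41 for SSCT F1, -1.42 to 0.0624 for SSCT F2/M and -5.54 to 1.47 for control F0.

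Counts of called CpGs depended on the test and thresholds. In the order of the comparisons in the report, from SSCT F0 to the controls against each other, the counts of 24, 7, 5, 5, 1 and 12 CpGs became 0 in each with the F test and 41, 87, 78, 83, 41 and 123 at 10 points. With 5 reads they were 12, 11, 9, 4 and 23 in the last 5, and with 20 reads 1, 1, 1, 0 and 3; merging strands left 4 in SSCT F1. The 6, 0, 1, 0, 0 and 2 windows became 0 with the F test and 15, 8, 8, 7, 4 and 10 at 10 points. With 20 reads SSCT F0 had 3 windows, SSCT F2/M 0 and control F0 against control F1 0; with 5 reads SSCT F2 pooled had 1 and control F0 against control F1 had 1; the names of the figure gave 1 window in SSCT F1 and 1 between the controls. There were 26 islands at 30% in place of 19, 17 at 70%, 18 at 1000 bp and 13 at 20 reads.

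Leaving out 1 library gave 24 to 78, 7 to 15, 4 to 9, 4 to 10, 1 to 5 and 10 to 24 CpGs, 4 to 12, 0 to 1, 0 to 1, 0 to 2, 0 to 1 and 0 to 2 windows, and 18 to 20 islands; fewer libraries leave more positions covered in all. In SSCT F0, 78 CpGs were called without SSCT F0 replicate 3 and 12 windows without SSCT F0 replicate 2. In SSCT F1, 14 and 13 CpGs were called without its replicates 4 and 5, 12, 12 and 15 without control F1 replicates 2, 3 and 4, and 1 window without its replicate 5 or control F1 replicate 2. In SSCT F2/M, 8 CpGs were called without its replicate 3 or 5, 9 without control F1 replicate 2 or 4, and 0 windows without its replicate 1, 2 or 3. In SSCT F2/P, 10, 9 and 8 CpGs were called without its replicates 1, 2 and 5, 9 without control F1 replicate 2, 2 windows without its replicate 3, and 1 without its replicate 4 or 5 or control F1 replicate 1, 2 or 5. In SSCT F2 pooled, 2 CpGs were called without SSCT F2/M replicate 2 or 4 or control F1 replicate 3 or 4, 3 without SSCT F2/P replicate 2 or control F1 replicate 5, and 5 without control F1 replicate 1 or 2; 1 window was called without SSCT F2/M replicate 4, SSCT F2/P replicate 3 or control F1 replicate 1, 2, 4 or 5. Between the controls, 24 CpGs were called without control F0 replicate 1 or 3, 20 without control F0 replicate 2 or control F1 replicate 4, 1 window without control F1 replicate 1 or 4, and 0 without replicate 5.

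With the replicate number as a block, the CpG counts were 24, 7, 5, 5, 1 and 15 and the window counts 5, 0, 1, 0, 0 and 0, and the all-Hox sign-flip p was 0.75 to 1.0 (exact). The numbers do not pair the mice: over 460464 CpGs the deviations of same-numbered libraries correlated at -0.0112 to 0.0097. Of the 38 gene means, 27 stayed within 1 SD without the 2000 bp, 35 when read-weighted and 36 at 20 reads. Depth limits the founders: 390 Hox positions were read in all 6 F0 libraries.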
